A study of Mus musculus with 48 samples.

Results

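The genes described here were 4 major urinary protein genes (Mup3, Mup20, Mup21 and Mup7) and 4 further liver genes known as targets of pulsatile growth hormone (Hsd3b5, Elovl3, Selenbp2 and Keg1), followed through mouse liver, isolated hepatocytes, hepatocyte spheroids and spheroids engrafted in the eye. The list was fixed by gene name and held 9 genes, of which 8 had an identifier among the 46517 genes counted. The name C6-ps matched no identifier and is given no value. Samples are labelled wild-type albino mice of strain C57BL/6N, and the methods name an albino B6/J strain. The study used adults of both sexes and did not record the sex of each sample. Bulk RNA was sequenced from 3 livers, 3 hepatocyte preparations (cells released by collagenase perfusion and enriched on Percoll), 2 in vitro spheroid samples (hepatocytes grown in medium with dexamethasone and insulin), 5 explants and 3 irises of mice that received no graft. Explants were spheroids removed with the surrounding iris 2 months after transplantation into the anterior chamber of the eye, so each held recipient iris besides donor cells.

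Major urinary proteins are small lipocalins that the mouse liver secretes into blood and that pass into urine, where they carry volatile pheromones. Their genes form a crowded cluster of near copies, and males make more of most of them than females. In male rodents growth hormone arrives in pulses that switch the transcription factor STAT5 on and off in hepatocytes, whereas in females the hormone is present more evenly. The pulsed pattern keeps male-biased liver genes high, and loss of it lowers them.

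The 4 Mup members lie on chromosome 4 on the minus strand of build mm10, Mup7 at chr4:60066469-60070475, Mup20 at chr4:62050234-62054158, Mup3 at chr4:62083476-62087342 and Mup21 at chr4:62147932-62150863. All are protein-coding, with 6 or 7 exonic pieces and 677 to 1068 exonic bases. Because reads that matched several places were not counted, the degree to which these genes resemble each other decides how much of their RNA was seen. The first 60 bases of the second coding exon show this, with capitals for bases that differ from Mup3 and sequences from GENCODE M21.
Mup3: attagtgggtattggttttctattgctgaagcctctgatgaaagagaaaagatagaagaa
Mup21: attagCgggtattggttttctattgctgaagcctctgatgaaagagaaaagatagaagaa
Mup20: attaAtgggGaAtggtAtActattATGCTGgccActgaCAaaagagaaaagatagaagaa
Mup7: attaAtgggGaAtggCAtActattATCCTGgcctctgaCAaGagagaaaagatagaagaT
Within this stretch (chr4:62086874-62086933 in Mup3) Mup21 differed from Mup3 at 1 base, Mup20 at 14 and Mup7 at 16. Over the whole coding sequence Mup21 was 94.9% identical to Mup3, Mup20 87.6% and Mup7 82.2%. Of all stretches of 50 bases in the annotated Mup7 transcripts, 13.3% occurred in no other gene, and 62.9% were shared with Mup1 alone or among others. The share found in no other gene was 49.5% for Mup20, 80.7% for Mup21 and 86.7% for Mup3. Levels of Mup7, and to a lesser degree of Mup20, are therefore uncertain and are compared between samples, not with other genes.

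The non-Mup members are Hsd3b5 (chr3:98618634-98630252, minus strand), Selenbp2 (chr3:94693556-94704413, plus strand), Keg1 (chr19:12695786-12719902, plus strand) and Elovl3 (chr19:46131897-46135307, plus strand), all protein-coding. The share of their stretches found in no other gene was 100% for Elovl3, 93.9% for Keg1 and 78.8% for Hsd3b5. For Selenbp2 it was 56.1%, and the rest was shared with its neighbour Selenbp1. RefSeq gave promoters for 6 of the 8 genes (build GRCm38.p6). The 250 bases before the RefSeq start of Mup3, Mup21 and Keg1 are printed because the first pair are near copies upstream as well and the third holds the core letters that STAT5 binds. Capitals mark TTCNNNGAA, a pattern that reads the same on both strands.
Mup3: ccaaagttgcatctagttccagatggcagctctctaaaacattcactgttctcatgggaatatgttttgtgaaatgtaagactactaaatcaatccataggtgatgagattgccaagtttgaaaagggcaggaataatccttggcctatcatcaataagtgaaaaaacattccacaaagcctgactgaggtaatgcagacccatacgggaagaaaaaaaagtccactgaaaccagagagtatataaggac
Mup21: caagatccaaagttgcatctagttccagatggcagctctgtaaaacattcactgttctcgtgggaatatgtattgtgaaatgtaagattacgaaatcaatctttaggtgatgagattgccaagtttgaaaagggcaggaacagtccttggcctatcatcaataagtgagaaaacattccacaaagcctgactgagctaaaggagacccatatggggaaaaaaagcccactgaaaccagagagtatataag
Keg1: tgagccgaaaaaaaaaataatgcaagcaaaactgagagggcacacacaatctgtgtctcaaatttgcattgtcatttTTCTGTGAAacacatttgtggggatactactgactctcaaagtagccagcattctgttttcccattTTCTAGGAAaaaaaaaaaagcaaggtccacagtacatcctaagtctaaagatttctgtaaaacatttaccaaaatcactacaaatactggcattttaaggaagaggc
These stretches lie at chr4:62087318-62087567 and chr4:62150842-62151091 on the minus strand and chr19:12695540-12695789 on the plus strand. The Mup3 and Mup21 promoters were 89.5% identical after alignment. The Keg1 promoter held TTCNNNGAA 2 times, whereas the promoters of Mup3, Mup21, Mup7, Hsd3b5 and Selenbp2 held it 0 times in this window. Of 32851 promoters of this length 7.02% held it at least 1 time. The Hsd3b5 window (chr3:98645535-98645784) lies upstream of the counted gene and not next to it, so the bases before the counted start were not searched.

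Total counts per sample, summed over 3 technical libraries, were 3523171 to 3871404 in livers, 2718518 to 3573075 in hepatocyte preparations, 3247327 to 3447643 in spheroids, 5449589 to 6789648 in explants and 4596550 to 4881817 in irises. Summed levels of 10 hepatocyte markers, in TPM (counts scaled by gene length and by the sample total), were 12633 to 13904 in livers, 13294 to 16173 in hepatocyte preparations and 12317 to 13643 in spheroids, against 1400 to 1667 in irises. Reads of hepatocyte genes were thus counted in irises, and iris levels of the members are given as the background. Iris fractions of 59.0 to 82.0% were recovered from the deposited tables, and explant levels below are TPM after subtraction of that share of the mean iris unless said otherwise. Of the Y-linked genes, Ddx3y had 203 to 865 counts in each of the 16 samples, while Xist had 0 to 10. Liver 1 stood apart from livers 2 and 3 in the genes described here, so the number of these genes called against livers is also given without it. Comparisons of other gene lists with livers include liver 1 and are not given without it. The methods speak of biological replicates, but neither they nor the labels tie each sample to an animal, so p-values are given for the spread between these samples.

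Mup3, an abundant major urinary protein, was measured at 678, 1804 and 1647 TPM in livers 1 to 3 and at 1809, 1989 and 2211 TPM in the hepatocyte preparations. Levels in the spheroids were 421 and 818 TPM. The 5 explants had 0, 506, 40.6, 174 and 258 TPM, and irises had 98.9, 135 and 106 TPM. The spheroids bracketed liver 1, explant 2 lay between both spheroids, and every explant lay below every liver. Counts per base of Mup3 reached 0.907 in 1 library of the hepatocyte preparations, where the highest value of any gene in any library was 1.70. Duplicate reads had been removed before counting, and the effect of that step on Mup3 was not tested.

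Mup20, also called darcin, is the male urinary protein that makes a male's scent attractive and memorable to females. It was measured at 685, 1017 and 966 TPM in livers, 945, 883 and 1145 TPM in hepatocyte preparations, and 1080 and 1222 TPM in spheroids. Explants had 832, 1302, 1114, 1305 and 1047 TPM, and irises 113, 169 and 135 TPM. The liver, hepatocyte, spheroid and explant ranges all overlapped with at least one other, and the irises lay below all of them.

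Mup21 was measured at 89.5, 941 and 790 TPM in livers and at 678, 505 and 762 TPM in hepatocyte preparations. Spheroids had 32.6 and 57.1 TPM, explants 20.1, 41.2, 71.3, 73.6 and 61.1 TPM, and irises 10.6, 21.8 and 16.1 TPM. Spheroids and explants therefore overlapped each other and lay below all livers and hepatocyte preparations. Mup7 followed the same order, with 14.8, 126 and 129 TPM in livers and 116, 178 and 189 TPM in hepatocyte preparations. It was at 13.98 and 14.02 TPM in spheroids, at 16.1, 9.04, 0, 7.63 and 0.642 TPM in explants and at 6.97, 9.94 and 5.28 TPM in irises. Liver 1 lay within the explant range for Mup7.

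Hsd3b5, a member of the 3-beta-hydroxysteroid dehydrogenase family that reduces steroids in male liver, spanned a wide range. Livers had 2.70, 401 and 300 TPM, and hepatocyte preparations 267, 790 and 640 TPM. Spheroids had 3.44 and 5.20 TPM, explants 6.10, 1.88, 4.19, 0.440 and 3.15 TPM, and irises 2.32, 2.49 and 2.74 TPM. The reads behind these low values were 6 in liver 1, 7 and 10 in spheroids, 7 to 9 in explants before correction and 6 or 7 in irises. Both spheroids lay above every iris in TPM, by a few reads and without a test. Explants before correction had 1.94 to 3.16 TPM and overlapped the irises.

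Elovl3, an elongase of very long-chain fatty acids, was measured at 37.3, 371 and 366 TPM in livers and 501, 1331 and 1545 TPM in hepatocyte preparations. Spheroids had 9.16 and 9.70 TPM, explants 0, 29.3, 3.47, 38.7 and 6.54 TPM, and irises 8.43, 6.01 and 6.09 TPM. Explants 2 and 5 were the only explants above all irises, and explant 5 slightly exceeded liver 1. Keg1, a relative of the glycine N-acyltransferases, had 69.4, 156 and 200 TPM in livers and 260, 271 and 271 TPM in hepatocyte preparations. Spheroids had 11.9 and 12.2 TPM, explants 23.9, 69.3, 70.8, 67.3 and 74.6 TPM, and irises 1.38, 2.04 and 1.61 TPM. All 5 explants were above both spheroid samples for Keg1, explants 4 and 6 exceeded liver 1, and none reached livers 2 or 3.

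Selenbp2, a cytosolic protein that binds selenium and reactive acetaminophen metabolites, did not follow most of the other members. Livers had 58.0, 106 and 83.0 TPM, hepatocyte preparations 77.7, 418 and 397 TPM and spheroids 73.0 and 173 TPM. Explants had 59.3, 185, 259, 238 and 229 TPM, against 4.49, 4.52 and 4.54 TPM in irises. Explants 2, 4, 5 and 6 lay above all 3 livers.

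**Figure D1:**
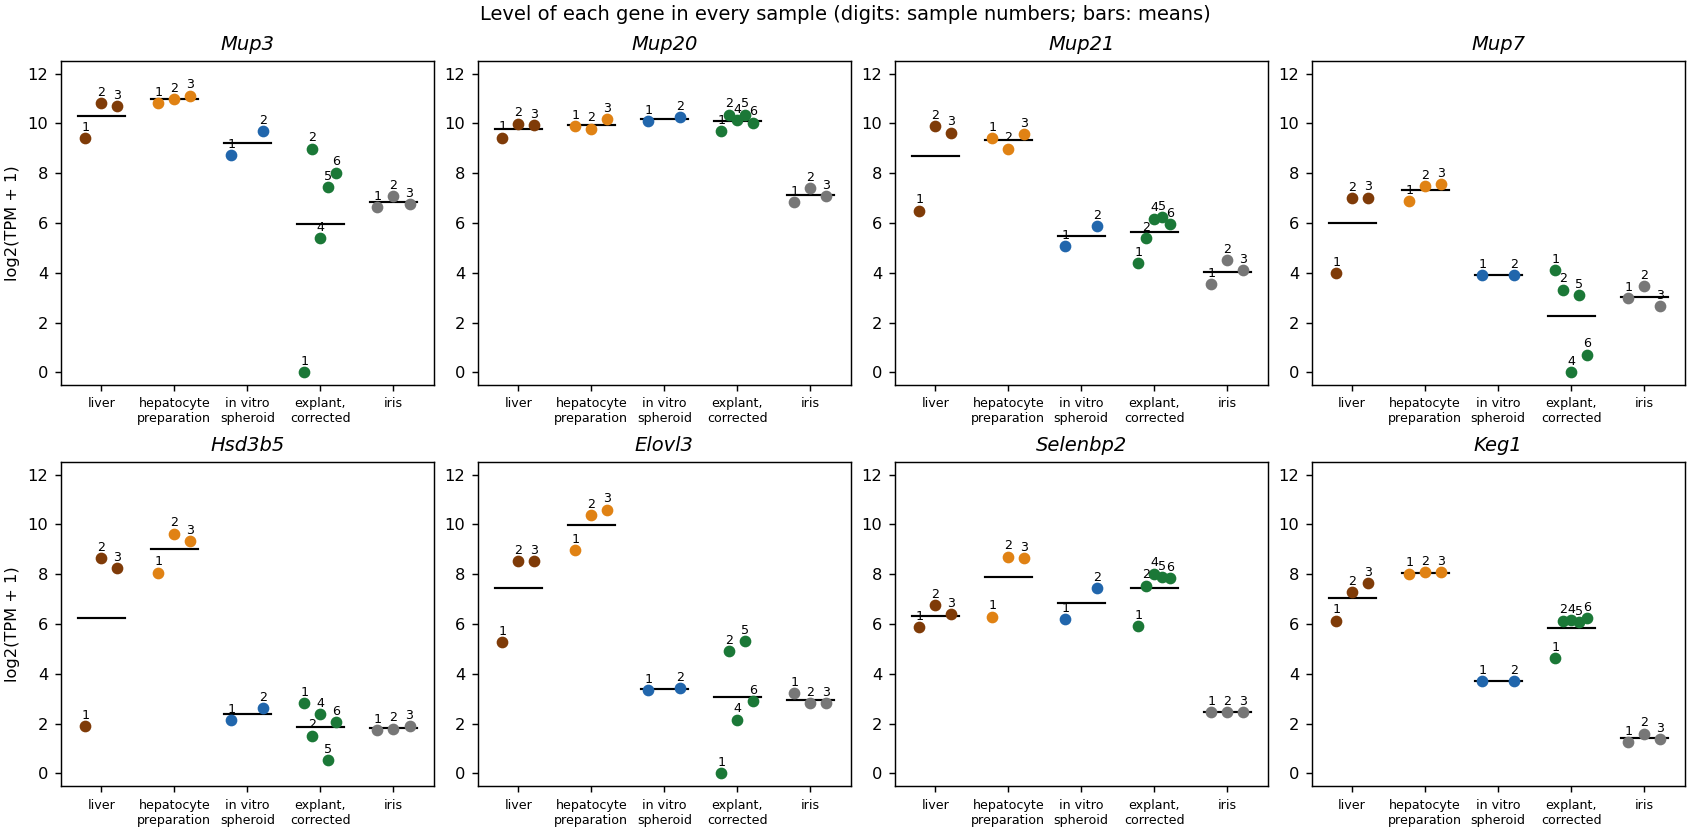
Level of each of the 8 genes in every sample as log2(TPM + 1), with explants after iris subtraction; points are samples, digits sample numbers and bars group means. Mup20 stays near 10 in livers, preparations, spheroids and explants, whereas Hsd3b5 has 267 to 790 TPM in preparations and at most 6.10 TPM in spheroids, explants and liver 1.

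Livers differed among themselves more than the comparison of livers with hepatocyte preparations could resolve. Liver 1 was lower than the mean of livers 2 and 3 in all 8 genes on the log2(TPM + 1) scale, by -6.57 for Hsd3b5, -3.27 for Elovl3, -3.26 for Mup21, -3.02 for Mup7, -1.35 for Mup3 and Keg1, -0.70 for Selenbp2 and -0.53 for Mup20. This is a description of 1 sample, with no test. Over 8320 genes the median difference was 0.02, and 1.14% of them were more than 4-fold lower in liver 1, as were 4 of the 8 members. Genes with sex-biased expression in mouse liver differed in liver 1 as well, male-biased genes in the direction of the members and most female-biased genes in the opposite direction. The lists were drawn up from background knowledge, but with earlier results of these data known. All 12 male-biased genes were lowest in liver 1, and 23 of 24 female-biased genes that reached 1 TPM were highest there. Of 10 hepatocyte markers 3 were lowest and 6 highest in liver 1, and the share over all genes was not computed. Cyp2b9, a female-biased cytochrome P450 named after its values were seen, had 307 TPM in liver 1 against 0.375 and 0 TPM in livers 2 and 3. Cyp2a4, named in the same way, had 248 TPM against 1.64 and 0.384 TPM. The Y-linked Ddx3y was at 49.9 TPM in liver 1 and at most 54.7 TPM in livers 2 and 3, with Xist at 0.117, 0.0393 and 0.0368 TPM in livers 1 to 3. The hepatocyte markers had a median difference of 0.06 on the log2 scale between liver 1 and the others. Markers of other liver cells and blood moved as well, with 5 of 10 more than 2-fold higher in liver 1, 1 more than 2-fold lower and a median of 0.99. Among them, named after their values were seen, Dcn of stromal cells had 919 TPM against 367 and 430 TPM, and Lyve1 of sinusoidal endothelium had 57.2 TPM against 19.4 and 17.96 TPM. Stab2, also of sinusoidal endothelium, went the other way, at 9.94 TPM against 15.6 and 13.8 TPM. Their part in the levels of the 8 genes was not tested.

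**Figure D2:**
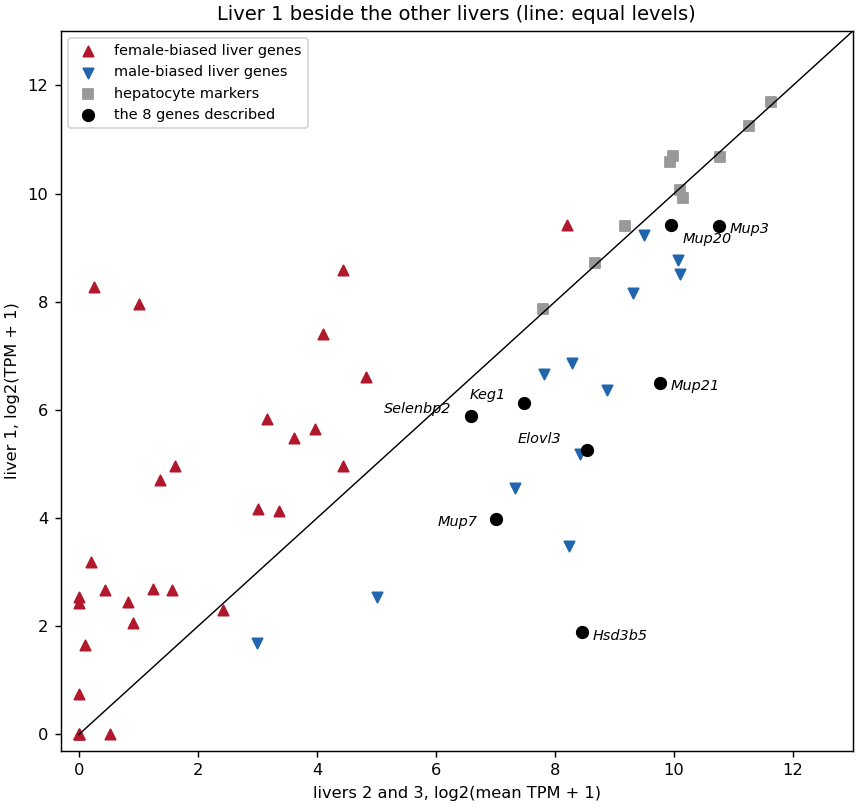
Liver 1 against the mean of livers 2 and 3, both as log2(TPM + 1), for the 8 genes (black), male-biased genes (blue), female-biased genes (red) and hepatocyte markers (grey). The 8 genes and all 12 male-biased genes lie below the line of equal levels, while 23 of 24 female-biased genes that reached 1 TPM lie above it.

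Hepatocyte preparations were compared with livers to show what isolation leaves of the 8 genes. None of them passed the test (edgeR quasi-likelihood, Benjamini-Hochberg adjusted p under 0.05 and over 2-fold), against 0.409% of 12236 genes called higher and 2.31% called lower. At an unadjusted p under 0.05 there were 3, and limma-voom called 0 whereas DESeq2 called 1, Keg1. The differences nearest the threshold were a log2 difference of 2.00 ± 0.56 (SE) for Selenbp2 (adjusted p = 0.0827), 1.05 ± 0.33 for Keg1 (adjusted p = 0.107) and 2.26 ± 0.76 for Elovl3 (adjusted p = 0.118). Without liver 1 again 0 were called. Preparation 1 was the lowest of its group for Elovl3, Hsd3b5, Selenbp2, Mup3, Mup7 and Keg1, and without it Selenbp2 was called (2.45, adjusted p = 0.00523). Of 12 male-biased genes 10 were lowest and 1 highest in preparation 1. Of 21 female-biased genes 12 were highest and 3 lowest there. In the same preparation 6 of 11 circadian clock genes were more than 2-fold higher than in the others and 1 more than 2-fold lower. Among 7886 genes of at least 10 TPM in the others, 3.07% were more than 2-fold lower in preparation 1. The shares of all genes that were lowest, highest or more than 2-fold higher there were not computed. Whether any of these lists bears on Elovl3 or Selenbp2 was not tested.

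The step from hepatocyte preparations to spheroids in culture lowered most of the 8 genes. Of the 8, 6 were called lower and 0 higher, where 9.11% of 12247 genes were called lower and 8.13% higher. The log2 difference was -7.35 ± 0.65 (SE) for Hsd3b5 and -7.23 ± 0.65 for Elovl3. It was -4.79 for Keg1, -4.17 for Mup21, -3.85 for Mup7 and -1.99 for Mup3, with adjusted p-values from 4.74e-05 for Keg1 to 0.00734 for Mup3. Mup20 differed by -0.11 ± 0.22 with a 95% interval from -0.63 to 0.41, so a change of more than 2-fold in counted reads lay outside the interval. Counts per base of Mup20 reached 0.523 in a spheroid library, and the effect of duplicate removal on Mup20 was not tested. Selenbp2 differed by -1.57 ± 0.72 (adjusted p = 0.146), and its 95% interval ran from -3.24 to 0.09. In each leave-one-out fit 6 or 7 members were called, the added gene being Selenbp2. With bulk RNA, fewer cells expressing a gene and less RNA per cell cannot be told apart.

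Against livers, spheroids were lower in 5 of the 8 genes, with 11% of 12959 genes called lower and 8.24% higher. These were Hsd3b5 (-5.90 ± 1.70, adjusted p = 0.0339), Elovl3 (-4.91 ± 1.02, adjusted p = 0.0111), Mup21 (-3.89 ± 0.95, adjusted p = 0.0193), Keg1 (-3.68 ± 0.48, adjusted p = 0.00201) and Mup7 (-2.82 ± 0.85, adjusted p = 0.0397). Mup3 differed by -1.26 ± 0.48 (adjusted p = 0.0805). Mup20 and Selenbp2 differed by 0.25 and 0.48, with adjusted p-values of 0.449 and 0.397. Without liver 1, Mup3 was called as well (-1.61, adjusted p = 0.00835), and Hsd3b5 then differed by -6.49 (adjusted p = 4.43e-06). Without liver 2 the count was 2, without liver 3 it was 3, and without either spheroid sample only Keg1 was called. With limma-voom, too, Keg1 alone was called.

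Explants were compared with irises on counts, as deposited, because both contained iris. Keg1 was higher by 3.64 ± 0.60 (adjusted p = 0.00494), Selenbp2 by 3.83 ± 0.62 (adjusted p = 0.00472) and Mup20 by 1.70 ± 0.28 (adjusted p = 0.0053). These were 3 of the 7 members tested, where 6.16% of 16764 genes were called higher and 0.316% lower. The other 4 did not pass, with log2 differences of 0.85 ± 0.34 for Mup21, 0.60 ± 0.42 for Elovl3, 0.48 ± 0.35 for Mup3 and 0.00 ± 0.31 for Mup7. Hsd3b5 had too few reads to be tested. For all 10 hepatocyte markers explants were called higher than irises, with a median log2 difference of 3.73.

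**Figure D3:**
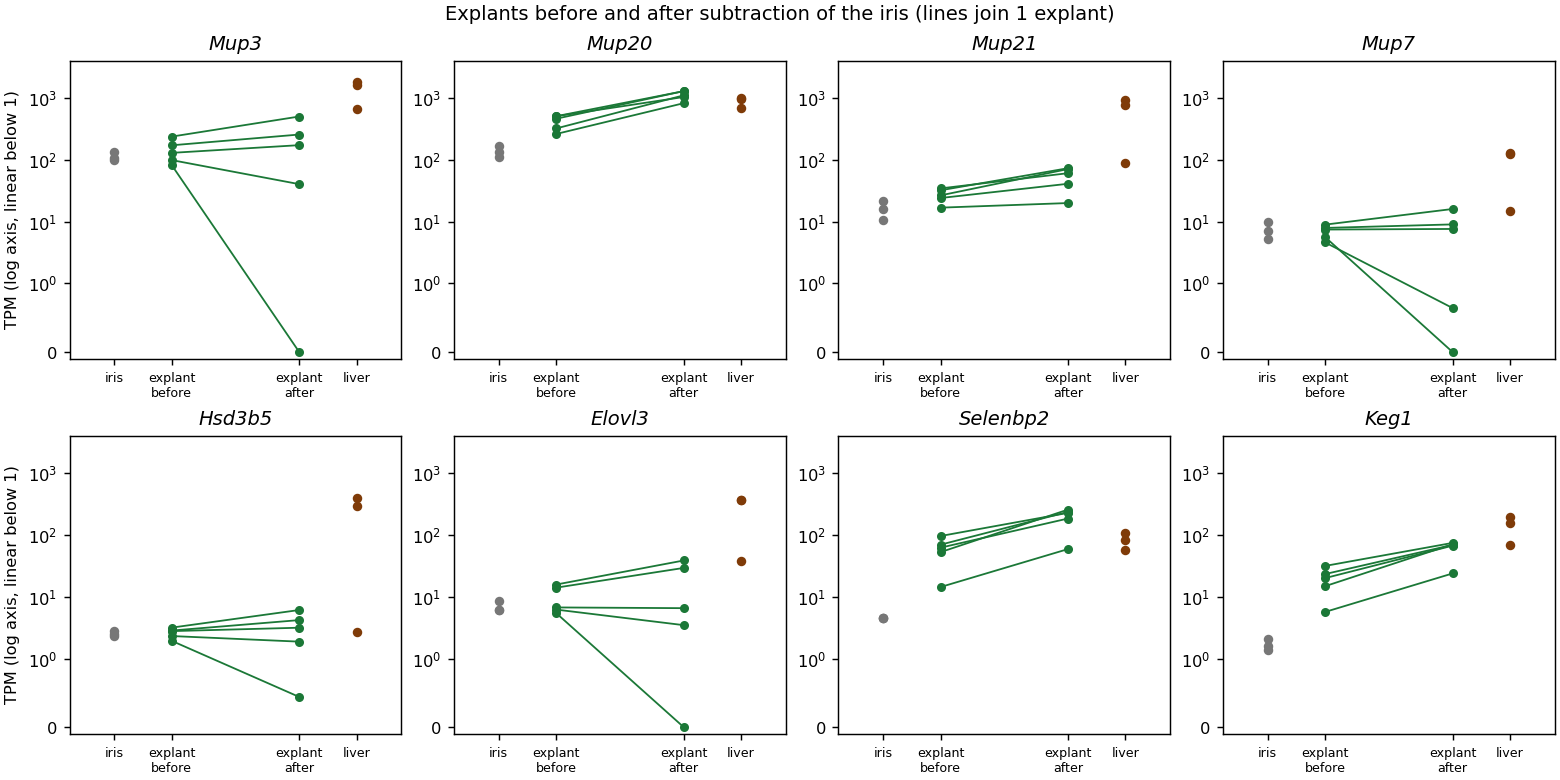
TPM of the 8 genes in irises, in each of the 5 explants before and after subtraction of the iris share (joined by a line), and in livers, on an axis that is logarithmic above 1 and linear below. Subtraction raises Mup20, Selenbp2 and Keg1 in every explant and takes Mup3 and Elovl3 to 0 in explant 1 and Mup7 to 0 in explant 4.

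After iris subtraction most of the 8 genes were below their level in hepatocyte preparations. Against hepatocyte preparations 5 of the 8 genes were called lower and 0 higher (limma on log2(TPM + 1)), where 3.41% of 20629 genes were called lower, 15.8% were called higher and the median over all genes was a difference of 0.73. Hsd3b5 differed by -7.14 ± 0.58 (adjusted p = 0.00012), Elovl3 by -6.92 ± 1.12 (adjusted p = 0.00304) and Mup7 by -5.06 ± 0.93 (adjusted p = 0.00555). Mup21 differed by -3.69 ± 0.42 (adjusted p = 0.000541) and Keg1 by -2.21 ± 0.38 (adjusted p = 0.00392). Mup3 had the difference -5.00 ± 1.76 but did not pass (adjusted p = 0.0767), since it spanned 0 to 506 TPM between explants. Selenbp2 differed by -0.44 ± 0.66, with a 95% interval from -1.92 to 1.05. After subtraction 3 of 9 iris markers were still called higher than in preparations (median 2.52), while 0 of 10 hepatocyte markers were called (median -0.14). Of 11 circadian clock genes, 6 were called lower and 2 higher than in preparations (median -3.08). Against livers 7 were called lower and 2 higher (median -4.14), beside 3.18% lower and 12.1% higher over all genes. Against spheroids 7 were called lower and 0 higher (median -2.85), beside 1.09% lower and 5.16% higher over all genes. The part of either in the values of the 8 genes was not tested.

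Against livers, 2 of the 8 genes were called lower, Mup21 (-3.04 ± 0.77, adjusted p = 0.0285) and Elovl3 (-4.38 ± 1.27, adjusted p = 0.0466), where 3.18% of 20656 genes were called lower, 12.1% were called higher and the median over all genes was 0.57. Without liver 1 the count was 4, with the addition of Hsd3b5 (-6.58, adjusted p = 0.00287) and Mup7 (-4.76, adjusted p = 0.0434). Without liver 2 or without liver 3 it was 0. Without explant 4 or explant 6 it was 1. Selenbp2 differed by 1.10 ± 0.48 (adjusted p = 0.155), and by 0.87 without liver 1. Without explant 1, Mup21 and Elovl3 were no longer called, Mup7 was called lower, and Selenbp2 was called higher. Selenbp2 was also called higher, by 1.69 (adjusted p = 0.000675), with uncorrected counts scaled to liver genes, where the median over all genes was 3.47.

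For Mup20 the direction of the call depended on how iris RNA was treated. After correction it differed from livers by 0.33 ± 0.20 (adjusted p = 0.276, 95% interval -0.11 to 0.78) and from hepatocyte preparations by 0.17 ± 0.18 (adjusted p = 0.519, 95% interval -0.23 to 0.56). Before correction the same comparisons gave -1.13 (adjusted p = 0.00289) and -1.29 (adjusted p = 0.000772). Uncorrected counts were also scaled to 345 liver genes whose iris level was at most 2% of that in livers. The difference of Mup20 from livers was then 1.18 (adjusted p = 0.0086), where the median over all genes was 3.47. By contrast, Hsd3b5, Elovl3, Mup21 and Mup7 were below both livers and hepatocyte preparations with each of these 3 scalings. Selenbp2 also changed sign against livers, to -0.65 before correction (adjusted p = 0.304), without passing the test there.

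Engraftment was set against culture by comparing explants with spheroids. Only Keg1 was called higher, by 2.14 ± 0.52 (adjusted p = 0.0499), which makes 1 of 8 where 5.16% of 20601 genes were called higher and 1.09% lower, and the median over all genes was 0.47. The call was lost without either spheroid sample and without any one of explants 2, 4, 5 and 6. Before iris correction Keg1 differed by 0.44 (adjusted p = 0.514), and Mup3 (-2.11) and Mup20 (-1.52) were called lower. Mup20 differed by -0.06 ± 0.20 (95% interval -0.52 to 0.41) and Mup21 by 0.17 ± 0.57. Errors were large for the other low genes, where Hsd3b5 differed by -0.53 ± 0.79, Elovl3 by -0.32 ± 1.38, Mup7 by -1.66 ± 1.19 and Mup3 by -3.23 ± 2.15.

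**Figure D4:**
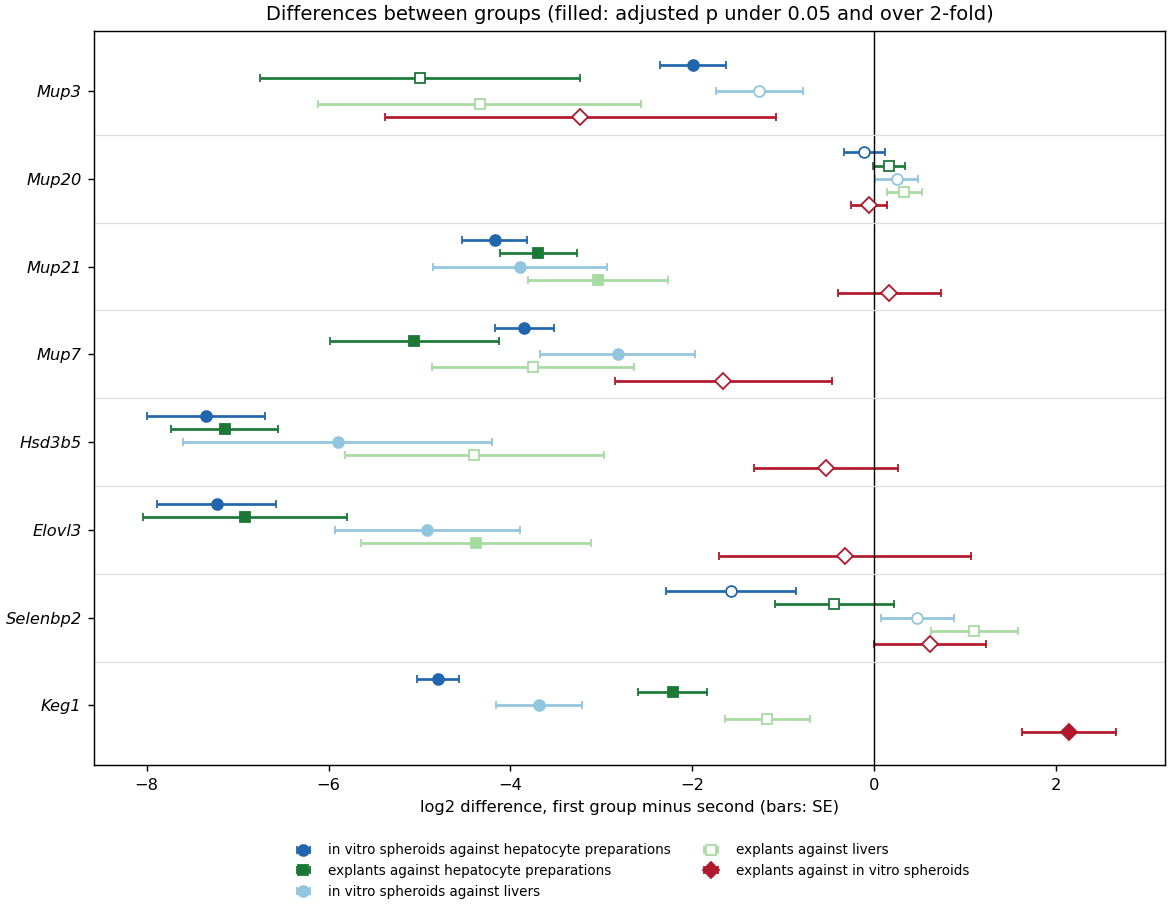
Log2 difference with its SE for each gene in 5 comparisons of spheroids and explants; filled symbols mark an adjusted p under 0.05 and over 2-fold. Mup20 stays near 0 in all 5, and the red symbols (explants against spheroids) are filled for Keg1 alone.

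The rest of the Mup family was mostly lower in spheroids and explants than in hepatocyte preparations, whereas fewer of its genes passed the test against livers. Of 43 further Mup genes and pseudogenes, 33 had at least 1 count, and their counts were summed. Reads that match several near copies were not counted, so the sums are undercounts. The sum was 54.7, 745 and 663 CPM (counts scaled by the sample total alone) in livers 1 to 3 and 613, 1093 and 776 in hepatocyte preparations. Spheroids had 56.6 and 126, explants 11.4 to 24.96 before correction and irises 13.1 to 22.2 CPM, so explants overlapped irises. In spheroids against hepatocyte preparations 16 of 21 tested were called lower and 0 higher, beside 9.11% and 8.13% of all genes. The median log2 difference was -3.26 against 0.01 over all genes. The largest were Mup16 (-5.35), Mup11 (-5.22) and Mup8 (-5.09). In explants against hepatocyte preparations 21 of 28 were called lower, led by Mup11 (-7.49), Mup17 (-7.32) and Mup1 (-6.98), beside 3.41% of all genes. Against livers, 1 of 19 was called lower in spheroids (median -2.10), beside 11% of all genes. In explants 7 of 28 were called lower (median -2.40), beside 3.18% of all genes. Both comparisons with livers include liver 1, which had the lowest sum of the livers.

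Other genes under pulsatile growth hormone were taken from lists of male-biased genes, female-biased genes and the signalling pathway. In spheroids against hepatocyte preparations 10 of 12 male-biased genes were called lower, led by Cyp4a12b (-7.58), Slco1a1 (-7.17) and Cyp4a12a (-6.98), and 0 higher, beside 9.11% lower and 8.13% higher over all genes. Of 16 female-biased genes tested 8 were called higher and 1 lower, with a median of 1.33. Against livers, however, 3 of 17 were called higher and 3 lower, with a median of -0.45, beside 8.24% higher and 11% lower over all genes. Liver 1 was included in that fit. The largest rises against preparations were those of Sult2a1 (5.80), Cyp2b10 (5.77) and Slc22a27 (5.68), and Cyp2c69 was the gene called lower (-3.99). Of the 11 pathway genes 6 were called lower and 0 higher, led by Igfals (-4.88), which encodes the binding partner of circulating IGF-1, then Socs2 (-3.97), a feedback inhibitor that STAT5 induces, and Igf1 (-3.63). The growth hormone receptor gene Ghr was called lower too (-1.59 ± 0.26, adjusted p = 0.00471), whereas Stat5b differed by -0.70 and was not called.

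In explants against hepatocyte preparations 6 of 12 male-biased genes were called lower, led by Slco1a1 (-6.57), Ugt2b1 (-3.51) and Cyp7b1 (-2.95). Of 26 female-biased genes 6 were called higher and 2 lower, with a median of 1.25, beside 15.8% higher, 3.41% lower and a median of 0.73 over all genes. Against livers 2 of the 26 were called higher and 2 lower, beside 12.1% higher and 3.18% lower over all genes. This fit, too, included liver 1. The pathway genes called lower were Onecut1 (-3.80), Igfals (-1.65) and Ghr (-1.54), 3 of 11. Against spheroids, explants were called higher for 2 of the 11 pathway genes, Socs2 (3.07 ± 0.64, adjusted p = 0.0294) and Igfals (2.81 ± 0.44, adjusted p = 0.0105), and for 1 of 12 male-biased genes, Cyp4a12b (3.60), beside 5.16% of all genes. Socs2 is also expressed in iris, at 3.70 to 4.60 TPM, and explants had 6.07 to 9.73 TPM before correction.

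Close relatives of the members did not all follow them. In spheroids against hepatocyte preparations 6 of 11 tested were called lower and 1 higher, beside 9.11% and 8.13% of all genes. The steroid dehydrogenases Hsd3b2 (-5.24), Hsd3b3 (-3.61) and Hsd3b7 (-1.67) fell with Hsd3b5, and Elovl2 (-1.69) and Elovl5 (-1.19) fell less than Elovl3, a difference that was not tested. Elovl7 rose (4.73), and Selenbp1, which shares stretches of sequence with Selenbp2, differed by -0.20.

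Over the 13 samples other than irises, with corrected explants, each gene outside the list was correlated (Pearson r) with the mean standardised level of the 8 members. A member was correlated with the mean of the other 7. By that measure r was 0.94 for Elovl3, 0.88 for Mup21, 0.79 for Hsd3b5, 0.75 for Keg1, 0.71 for Mup3 and 0.65 for Mup7. Selenbp2 (0.31) and Mup20 (-0.03) followed the others least. Among 8520 other genes of at least 10 TPM in livers the highest values were for Nudt7 (0.96), Gm13773 (0.95) and Mup14 (0.94), followed by Mup4 (0.93), Gm10319 (0.92), Nit2 (0.91), Nat8f5 (0.91), Cat (0.91), Mup10 (0.91) and Adh6-ps1 (0.91). The samples fall into groups and share liver 1, so these values describe the samples and are given without a p-value.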

How the data were processed

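Total RNA was sequenced with Smart-seq3 in bulk, as 3 technical libraries for each of 16 samples. Per the labels and methods, reads were aligned to mm10 with TopHat2, duplicates were removed (the methods name UMI-tools), and the authors counted reads per gene with featureCounts 1.4.6-p5 (versions of the others are not given in the sources used here). By the file headers counting was unstranded and left out reads with several matches, so antisense partners and near copies cannot be told apart. The deposited counts of 3 libraries were summed and equalled the deposited collapsed table in 100% of cells. The authors computed TPM from these counts, and the deposited explant columns of the corrected table hold a signal, TPM after subtraction of an iris fraction estimated by CIBERSORT. Fractions were solved from both tables. The deposited explant 4 column followed another arithmetic (the fraction subtracted from the iris mean), so the formula of the methods was applied to all 5 explants with 81.0% for explant 4, and the deposited column was an alternative.

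For each pair of groups, genes kept by filterByExpr were scaled by TMM and entered the quasi-likelihood test of edgeR 4.0.16, and corrected TPM with limma 3.58.1 (trend, pseudocount 1) on genes of the authors' corrected table. DESeq2 1.42.0 and limma-voom were alternatives. P-values were adjusted over all genes tested by Benjamini-Hochberg, and a call needed an adjusted p under 0.05 and a log2 difference over 1. Scripts were tested on simulated data with 200 genes changed 4-fold (recovered in spheroids against hepatocyte preparations: 98%, of 12223 genes). The simulation gave every gene the same spread and changed only genes above a minimum level. It therefore checks the scripts and does not give the power for the genes described here. All 9 listed genes are described. From other lists, genes called are named, at most 3 from each end. Members and lists were chosen with earlier results of these data known. Intervals cover the spread between samples, and depth (2718518 to 6789648 counts) limits genes with few reads.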

Additional observations from a re-analysis of the deposited data

Results flagged for a closer look

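Keg1 in explant 1, at 23.9 TPM after iris subtraction, lay farther below the other 4 explants (67.3 to 74.6 TPM) than Dixon's criterion for 5 samples allows. Chance flags about 1 in 20 groups, and 8 genes were examined on 2 scales. Explant 1 had an iris fraction of 82.0%, the highest of the 5, and the part of that fraction in the low value was not tested.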

How the results depend on the processing

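The log2 differences of the 8 genes were recomputed under 835 combinations of gene, comparison and setting. The call, and the direction of each called difference, held in 754, a call was lost in 42 and gained in 36, and 3 reversed. The reversals were Mup20 in explants before iris correction, against livers (-1.13) and against hepatocyte preparations (-1.29), and Elovl3 in explants against spheroids with uncorrected counts scaled to liver genes (1.70). For these the cause was not tested.

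Counts of genes called changed as follows. In hepatocyte preparations against livers 0 became 1 with DESeq2, 3 without a low-count filter and 2 with a single fit of all groups. In spheroids against livers 5 became 1 with limma-voom, and in explants against irises 3 became 1. In explants against livers 2 became 1 with a pseudocount of 0.1 or iris fractions from non-negative least squares. It became 3 among genes of at least 10 TPM and 0 with the deposited column of explant 4. Before correction 7 were called, all lower, where 9033 of all 20663 genes were called. With counts scaled to liver genes 7 were called, 5 lower and Mup20 and Selenbp2 higher, where 16266 of all 17370 genes were called. In explants against hepatocyte preparations 5 became 8 before correction, where 10177 of all 20640 genes were called. In explants against spheroids the 1 higher call, Keg1, was lost before correction. There 2 other genes were called lower, Mup3 (-2.11) and Mup20 (-1.52), where 7635 of all 20609 genes were called. The count became 0 with the deposited column of explant 4. With counts scaled to liver genes 2 were called higher, Keg1 and Elovl3, where 15264 of all 17951 genes were called. That last scaling moved the median of all genes to 3.47 against livers, 3.80 against preparations and 2.68 against spheroids. Leaving out 1 sample at a time gave 0 to 1 in preparations against livers, 1 to 6 in spheroids against livers, 0 to 4 in explants against livers and 0 to 1 in explants against spheroids.

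Same-numbered livers and hepatocyte preparations correlated at 0.104, 0.0638 and -0.0449 in their deviations from the group means. Samples with unlike numbers correlated at -0.124 to 0.104. With 3 samples per group these values cannot show whether a number marks a shared animal. With the replicate number as a block, 2 of the genes described here were called in preparations against livers, 0 in explants against livers and 0 in explants against spheroids. Fits with the block kept only numbers found in both groups, so most explants were left out. Among all genes 0 of 20033 were then called against livers and 0 of 19957 against spheroids. The lost calls therefore cannot be put down to the block rather than to fewer samples. No other count of the genes described here moved by over 1.5 times. Limits: spheroids had 2 samples, a fit without 1 of them assumes that the other varies like the rest, and reads of near-identical Mup copies were not counted.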
